A study of Mus musculus with 22 samples.

Results

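The miR-10 and miR-196 families are encoded inside the Hox clusters, the gene arrays that set position along the body axis. Their 5 members here, listed as mmu-miR-10a-5p, mmu-miR-10b-5p, mmu-miR-196a-5p, mmu-miR-196b-5p and mmu-miR-615-3p and written below without the species prefix, were 5 of the 1966 mature miRNA names in the count table, and they were chosen by name and by the position of their genes. The libraries were made from small RNA of round spermatids (RS), which are germ cells past meiosis that have not yet elongated, sedimented from the testes of mice aged 75 to 85 days. One batch, called here the KO batch, held 5 libraries of wild-type (WT) mice and 5 of mice without GRTH/DDX25 (KO), a testis RNA helicase. The other, called the KI batch, held 6 libraries of WT mice and 6 of knock-in mice (KI) that carry a human GRTH gene with an Arg-to-His change, whose protein lacks the phosphorylated form. Both mutants are sterile, because their RS do not elongate. The strain and the number of animals per library are not given in the sources used here, so the p-values measure the spread between these libraries, which may in part be technical.

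A miRNA guides an Argonaute protein to messenger RNAs that pair with its seed, the bases near its 5′ end, and lowers the amount or the translation of those messages. The miR-10 and miR-196 hairpins are copied from within the Hox clusters and are usually found in trunk and posterior tissues, where Hox genes of the same clusters are active. Several Hox messages are known targets of both families. Mesenchymal cells of posterior organs are among the cells that carry them.

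The mature sequences of the members are shown because the 2 pairs differ by a single base, which decides how far reads of one can be told from the other. They are given 5′ to 3′ from RefSeq (build GRCm38.p6), with the seed, bases 2 to 8, in capitals, and all 5 members were matched by name.
miR-10a-5p: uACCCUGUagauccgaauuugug
miR-10b-5p: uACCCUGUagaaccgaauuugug
miR-196a-5p: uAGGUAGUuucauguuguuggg
miR-196b-5p: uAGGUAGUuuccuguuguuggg
miR-615-3p: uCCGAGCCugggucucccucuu

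miR-10a-5p and miR-10b-5p shared the seed ACCCUGU and were identical at 22 of 23 positions, with the substitution U12A from miR-10a-5p to miR-10b-5p, counted from the 5′ end. miR-196a-5p and miR-196b-5p shared the seed AGGUAGU and were identical at 21 of 22 positions, with the substitution A12C from miR-196a-5p to miR-196b-5p. The differing base of both pairs lay outside the seed. Of the 1675 names with a sequence in that set, only these 2 names carried ACCCUGU and only these 2 carried AGGUAGU. The seed of miR-615-3p, CCGAGCC, was carried by no other name.

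Positions are those of the count table on GRCm38, read against the GENCODE vM21 annotation. miR-10a-5p lay at chr11:96317186-96317208 on the plus strand, between Hoxb5 and Hoxb4 and 1059 bp from Hoxb4, in no annotated transcript of a Hox gene. miR-10b-5p lay at chr2:74726074-74726096 on the plus strand, in introns of 1 transcript of Hoxd3 and 2 transcripts of Hoxd4. miR-196a-5p came from 2 loci with the same mature sequence. The first, Mir196a-1, was at chr11:96265187-96265208 on the plus strand, between Hoxb13 and Hoxb9 and 6249 bp from Hoxb9. The second, Mir196a-2, was at chr15:102973365-102973386 on the plus strand, between Hoxc10 and Hoxc9, within an intron of 1 long transcript of Hoxc5. miR-196b-5p lay at chr6:52230129-52230150 on the minus strand inside Hoxa9, where 3 transcripts on the same strand spanned it and 2 of them had an exon there. miR-615-3p lay at chr15:103014969-103014990 on the plus strand, in introns of 2 transcripts of Hoxc5. The members thus came from all 4 Hox clusters, and the Hoxb and Hoxc clusters each held 2 of the 6 loci.

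Total counts per library ranged from 559957 to 3239357, and 3 counts, taken as the least that a library can show, came to between 1.10 and 4.08 CPM (reads relative to library depth) on the scale used below. These floors cover counting error only. The germ cell miRNAs of a marker list (miR-34b and miR-34c, miR-449a and the X-linked miR-741, miR-743, miR-871, miR-880 and miR-881) were detected in every group. Their summed level per library ran from 207117 to 255568 CPM in WT of the KO batch and from 178137 to 234679 CPM in KO. In the KI batch it was higher, from 394670 to 442788 CPM in WT and from 374100 to 413134 CPM in KI. Of 3 muscle markers, miR-206-3p was at 0 in every library, but the others were present. The summed muscle level had a median of 13.7 CPM in WT of the KO batch and 30.2 CPM in KO. It was far higher in the KI batch, with medians of 633 CPM in WT and 405 CPM in KI. CPM are scaled by TMM over all 22 libraries, and log2 fold changes come from a fit of each batch alone.

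In the RS libraries, miR-10b-5p was the most abundant of the 5, then miR-10a-5p, miR-196a-5p, miR-196b-5p and miR-615-3p. By mean CPM in each group, miR-10b-5p ranked between 81 and 113 among the 1966 names, miR-10a-5p between 148 and 155 and miR-196a-5p between 207 and 245. Over all libraries they had 28143, 6951 and 1594 counts. miR-196b-5p had 88 counts and miR-615-3p had 30. miR-10b-5p exceeded miR-10a-5p, miR-10a-5p exceeded miR-196a-5p, and miR-196a-5p exceeded miR-196b-5p in 22 of 22 libraries. miR-196b-5p and miR-615-3p, the lowest neighbours, were not ordered in the same way throughout, with miR-196b-5p higher in 16 libraries, equal in 2 and lower in 4. All 5 are mature RNAs of similar length, so these are orders of read numbers; unequal capture of different sequences in small RNA libraries was not corrected for.

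Summed, the members took up 0.0797% ± 0.0169 (SD, n = 5) of WT counts in the KO batch and 0.146% ± 0.0378 (SD, n = 5) of KO counts. They took up 0.0643% ± 0.00920 (SD, n = 6) in WT of the KI batch and 0.116% ± 0.0269 (SD, n = 6) in KI. Most of this was miR-10b-5p.

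The comparison of KO with WT asked what the complete loss of GRTH does to RS miRNAs. miR-10b-5p and miR-196a-5p were about 2-fold higher in KO, and miR-10a-5p did not pass the test. The other 2 members, miR-196b-5p and miR-615-3p, did not pass the filter on low counts and were not tested. Of all 334 miRNAs tested, 41.9% were called, 21.3% higher and 20.7% lower, and against that background 2 of the 3 tested members were called, both higher.

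miR-10b-5p, the Hoxd cluster member of the miR-10 pair, measured 528, 259, 497, 545 and 446 CPM in the 5 WT libraries of the KO batch. In the 5 KO libraries it measured 912, 1154, 946, 804 and 559 CPM. The lowest KO library (replicate 5) lay just above the highest WT library (replicate 4), and WT replicate 2 was lower than its group. Scaled by library total in place of TMM, these libraries changed places, at 661 and 662 reads per 1e6 counts, and 4 of 5 KO libraries were above all WT libraries. The mean rose from 455 ± 116 to 875 ± 217 CPM (SD, n = 5 each). The log2 fold change was 1.002 (SE 0.21, 95% interval 0.54 to 1.47, adjusted p = 0.00627, edgeR quasi-likelihood F-test). Without WT replicate 2 it was 0.85 (adjusted p = 0.00774). With TMM scaling the groups did not overlap, which held in the higher direction for 7.49% of all tested miRNAs and in the lower for 14.1%.

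miR-196a-5p, the product of the Hoxb and Hoxc clusters, had 33, 20, 24, 60 and 42 counts in the WT libraries, or 33.2, 18.9, 22.1, 45.6 and 38.1 CPM. It had 43, 78, 76, 58 and 34 counts in the KO libraries, or 47.8, 65.5, 83.3, 78.3 and 46.2 CPM. All KO libraries were above all WT libraries in TMM-scaled CPM, by a small margin at the edge, and 3 of 5 were when scaled by library total. The mean rose from 31.6 ± 11.1 to 64.2 ± 17.03 CPM (SD, n = 5 each), a log2 fold change of 1.07 (SE 0.26, 95% interval 0.49 to 1.65, adjusted p = 0.0110, edgeR).

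miR-10a-5p, the Hoxb cluster member of the miR-10 pair, measured 246, 201, 220, 186 and 206 CPM in WT. It measured 228, 193, 193, 171 and 156 CPM in KO. The groups overlapped over most of their range. The means were 212 ± 22.9 and 188 ± 26.95 CPM (SD, n = 5 each), with a log2 fold change of -0.11 (SE 0.11, 95% interval -0.35 to 0.13, adjusted p = 0.468, edgeR).

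The comparison of KI with WT asked what changes when GRTH is present but its phosphorylated form is missing. The same 2 members were called, again higher and again close to 2-fold, and miR-10a-5p again was not. Of all 387 miRNAs tested, 38.0% were called, 18.1% higher and 19.9% lower. The KI libraries share no WT library with the KO comparison.

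miR-10b-5p ran from 429 to 652 CPM in WT of the KI batch, with a median of 584. In KI it ran from 782 to 1489 CPM, with a median of 1092. The groups were apart, also when scaled by library total, and KI replicate 3 was the highest of all libraries. The mean rose from 556 ± 98.4 to 1057 ± 261 CPM (SD, n = 6 each), a log2 fold change of 0.90 (SE 0.16, 95% interval 0.56 to 1.24, adjusted p = 8.85e-04, edgeR). Of all tested miRNAs, 6.46% were higher without overlap and 7.49% lower without overlap.

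miR-196a-5p ran from 37 to 91 counts in WT, that is 15.02 to 33.9 CPM with a median of 29.6. It ran from 73 to 206 counts in KI, that is 38.7 to 84.9 CPM with a median of 53.8. No KI library fell within the WT range with either scaling. The mean rose from 27.7 ± 7.09 to 57.8 ± 17.4 CPM (SD, n = 6 each), and the log2 fold change was 1.05 (SE 0.21, 95% interval 0.59 to 1.503, adjusted p = 0.00254, edgeR).

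miR-10a-5p ran from 160 to 194 CPM in WT, with a median of 180, and from 156 to 232 CPM in KI, with a median of 201. The KI range enclosed the WT range. The log2 fold change was 0.15 (SE 0.10, 95% interval -0.07 to 0.36, adjusted p = 0.296, edgeR), on means of 177 ± 13.7 and 199 ± 27.1 CPM (SD, n = 6 each). It would be called higher without KI replicate 2, the library with the lowest KI value, at a log2 fold change of 0.21 (adjusted p = 0.0825).

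**Figure D1:**
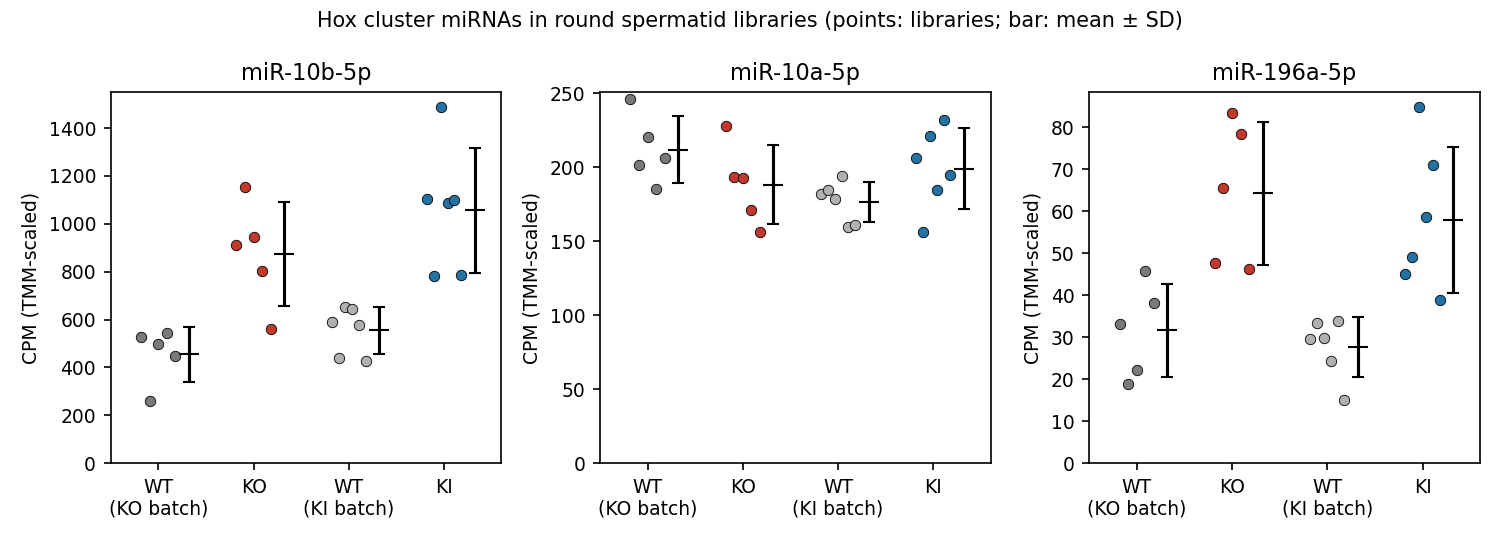
Levels of miR-10b-5p, miR-10a-5p and miR-196a-5p in CPM (TMM-scaled, linear axes from 0) in each library, by group, with bars for the mean and SD. Every KO and KI library lies above every WT library of its batch for miR-10b-5p and miR-196a-5p, while miR-10a-5p overlaps between the groups of both batches. Scaled by library total, the lowest KO library falls just below the highest WT library for both miR-10b-5p and miR-196a-5p.

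The KO effect and the KI effect were compared in a fit of all 4 groups. For miR-10b-5p the KO effect minus the KI effect was 0.09 (SE 0.27, 95% interval -0.47 to 0.64, adjusted p = 0.922, edgeR) on the log2 scale. For miR-196a-5p it was 0.01 (SE 0.35, 95% interval -0.72 to 0.75, adjusted p = 0.984, edgeR). The intervals still leave room for effects that differ in either direction. For miR-10a-5p, whose estimates had opposite signs, the difference was -0.26 (SE 0.16, 95% interval -0.58 to 0.06, adjusted p = 0.448, edgeR). The test called 0.0% of 421 miRNAs, with 67 at an unadjusted p under 0.05, and DESeq2 called 0.

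The WT libraries of the KI batch and the KO batch differed in many miRNAs, with 56.7% of 383 called, 26.9% higher and 29.8% lower in the KI batch. Among the members only miR-10a-5p was called in this fit, lower in the KI batch by a log2 fold change of -0.36 (SE 0.10, adjusted p = 0.00806, edgeR), although the groups overlapped at their edges. Without the filter on low counts this call was lost (-0.27, adjusted p = 0.131). miR-10b-5p gave 0.19 (SE 0.16, adjusted p = 0.337, edgeR) and miR-196a-5p gave -0.30 (SE 0.23, adjusted p = 0.305, edgeR). Ordered by mean level, miR-10b-5p was highest in KI, then KO, then WT of the KI batch, then WT of the KO batch, and each neighbouring pair in this order overlapped. Levels of the KO and KI libraries lie in different batches and were not tested against each other.

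Because a ratio of 2 miRNAs within a library does not depend on the library's scaling, the members were also compared with each other. Where counts are low it does depend on depth, through the 0.5 added to each count. The ratio of miR-10b-5p to miR-10a-5p asks whether the 2 members of the pair, with the same seed, moved apart. It takes the counts as deposited, and how many counts of one were reads of the other was not tested. There were 2.14, 1.29, 2.26, 2.93 and 2.17 miR-10b-5p counts for each miR-10a-5p count in the WT libraries of the KO batch. In KO there were 4.005, 5.97, 4.90, 4.69 and 3.57. All 5 KO libraries were above all WT libraries. The log2 ratio rose from 1.06 ± 0.43 to 2.18 ± 0.28 (SD, n = 5 each), a 2.18-fold change, with an exact two-sided permutation p of 0.00794, the smallest this design can give, and 0.0238 after Benjamini-Hochberg adjustment over 6 ratio tests.

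In the KI batch the ratio ran from 2.38 to 3.65 in WT and from 4.03 to 6.74 in KI. All 6 KI libraries were above all 6 WT libraries. The log2 ratio rose from 1.64 ± 0.25 to 2.38 ± 0.26 (SD, n = 6 each), a 1.68-fold change, with an exact two-sided permutation p of 0.00216, the smallest possible, and an adjusted p of 0.0130. The share of miR-10b-5p among the counts of the pair went from 67.4% ± 6.73 to 81.9% ± 2.89 in the KO batch (SD, n = 5 each). In the KI batch it went from 75.6% ± 3.27 to 83.8% ± 2.42 (SD, n = 6 each).

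**Figure D2:**
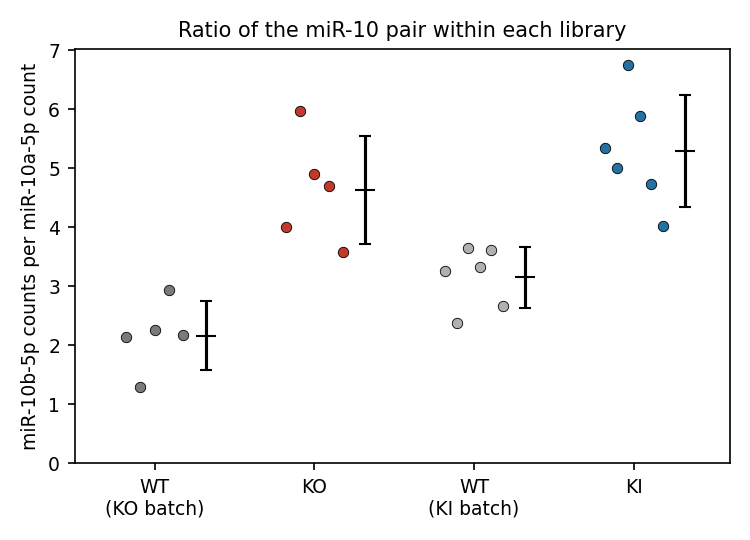
miR-10b-5p counts per miR-10a-5p count (linear axis from 0) in each library, by group, with bars for the mean and SD. KO libraries lie at 3.57 or more and KI libraries at 4.03 or more, above the WT maxima of 2.93 and 3.65 in their batches.

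The summed level of the pair, which is the level of the shared seed, rose by a smaller factor than miR-10b-5p alone. It was 667 ± 123 CPM in WT and 1063 ± 235 CPM in KO (SD, n = 5 each), and 732 ± 105 CPM in WT and 1256 ± 280 CPM in KI (SD, n = 6 each). miR-196a-5p and miR-10b-5p, which come from different clusters and have different seeds, kept a ratio that did not differ beyond the spread. The log2 ratio of miR-196a-5p to miR-10b-5p changed by 0.10 in KO (exact permutation p = 0.675, adjusted p = 0.810) and by 0.14 in KI (exact permutation p = 0.478, adjusted p = 0.718).

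The low members add little at this depth. miR-196b-5p, from the Hoxa cluster, had 2, 1, 4, 1 and 0 counts in WT of the KO batch and 1, 6, 6, 6 and 0 in KO. It had 2 to 5 counts in each WT library of the KI batch, with a median of 5, and 1 to 14 counts in KI, also with a median of 5. Without the filter on low counts, edgeR gave a log2 fold change of 1.47 in KO (SE 0.68, 95% interval 0.12 to 2.83, adjusted p = 0.178) and of 0.46 in KI (SE 0.45, adjusted p = 0.519), and neither passed. In the KI batch the log2 ratio of miR-196b-5p to miR-196a-5p fell by 0.83 (exact permutation p = 0.0238, adjusted p = 0.0476), on 25 and 36 miR-196b-5p counts in all, and in 10 of 12 fits that leave out 1 library it no longer passed 0.05. In the KO batch the same ratio changed by 0.08 (exact permutation p = 0.944, adjusted p = 0.944). With 5 added to each count in place of 0.5, it changed by -0.28 in KO (exact permutation, adjusted p = 0.607). In KI it then changed by -0.83 (exact permutation, adjusted p = 0.00649). This low ratio and its p-value thus depend on the number added.

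miR-615-3p, from an intron of Hoxc5, had 0 counts in all 5 WT libraries of the KO batch and 2, 3, 0, 1 and 1 counts in KO. No library of either group exceeded 3 counts, so no fold is given. In the KI batch it had 10 counts over the 6 WT libraries, at most 5 in 1 library, and 13 over the 6 KI libraries, at most 4. With no filter on low counts, edgeR would call it in KO (adjusted p = 0.0265) on these 7 counts against 0.

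**Figure D3:**
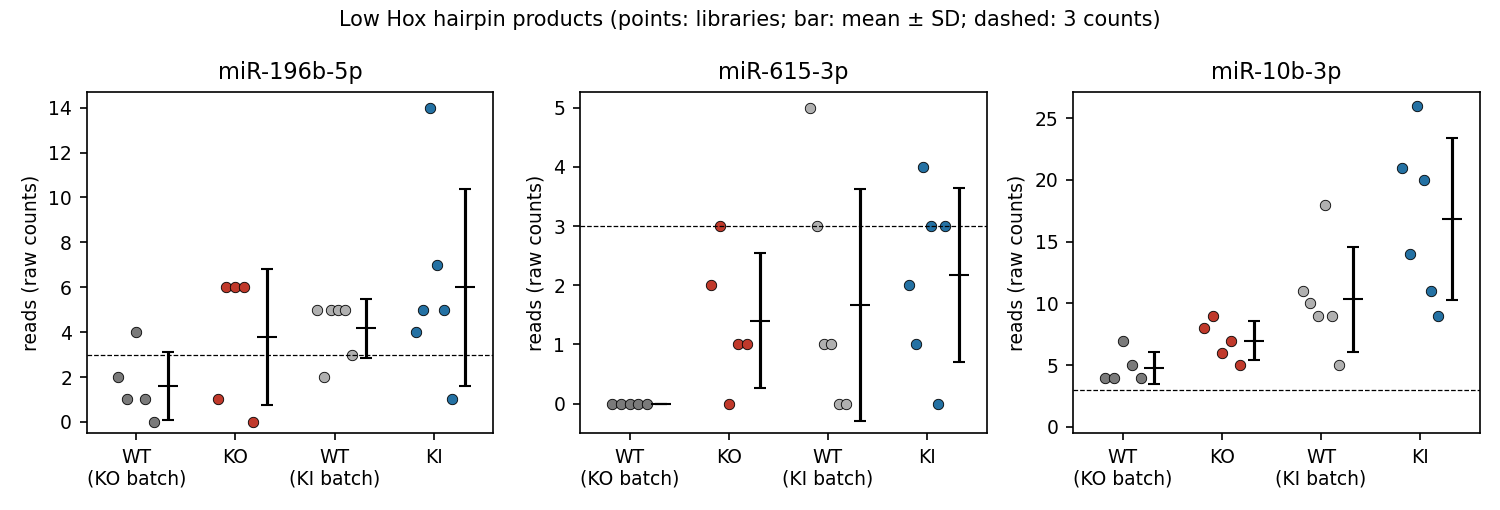
Raw counts of miR-196b-5p, miR-615-3p and miR-10b-3p in each library, by group, with bars for the mean and SD and a dashed line at 3 counts. miR-615-3p is at 0 in every WT library of the KO batch and at 5 counts or fewer in the others, and only miR-10b-3p is above 3 counts in all libraries.

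The hairpins also release a second arm. For Mir10b the 5p arm, in capitals in the hairpin below, is followed by a loop and the 3p arm (chr2:74726070-74726137, plus strand, GRCm38.p6).
Mir10b: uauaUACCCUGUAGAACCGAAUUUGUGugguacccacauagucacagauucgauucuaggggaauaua

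miR-10b-3p was the only second arm with more than 11 counts over all libraries, at 222. In the KO batch it measured 4.34 ± 1.19 CPM in WT and 7.85 ± 1.27 CPM in KO (SD, n = 5 each), on 24 and 35 counts, and was not tested because of the filter. In the KI batch it measured 4.92 ± 2.16 CPM in WT and 7.43 ± 2.05 CPM in KI (SD, n = 6 each), with a log2 fold change of 0.61 (SE 0.29, adjusted p = 0.126, edgeR), which did not pass. The mean lay higher in the mutants of both batches, as for the 5p arm. miR-10a-3p had 11 counts in all, miR-196a-2-3p had 7, miR-196a-1-3p and miR-615-5p had 1 each, and miR-196b-3p had 0.

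The miR-99 and miR-100 miRNAs resemble miR-10, in part of the seed too, but have another seed as a whole, and let-7 shares a shifted run with miR-196. They are shown here for that likeness, again with bases 2 to 8 in capitals.
miR-100-5p: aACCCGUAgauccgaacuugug
miR-99a-5p: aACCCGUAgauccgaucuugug
miR-99b-5p: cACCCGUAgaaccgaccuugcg
let-7a-5p: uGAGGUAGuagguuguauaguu

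The seeds of miR-10b-5p and miR-100-5p had a run of 4 bases in common, ACCC, and those of miR-196a-5p and let-7a-5p a run of 6, AGGUAG. Among the 3 miR-99 and miR-100 names, miR-99a-5p rose in KO (log2 fold change 0.68, SE 0.24, adjusted p = 0.0493, edgeR) and in KI (0.66, SE 0.20, adjusted p = 0.0214, edgeR). In KO the other two gave 0.19 (miR-99b-5p) and -0.37 (miR-100-5p) and did not pass. In KI both fell, miR-99b-5p by 0.34 (adjusted p = 0.0182, edgeR) and miR-100-5p by 0.64 (adjusted p = 0.00766, edgeR) on the log2 scale. The median log2 fold change of the 3 was 0.19 in KO and -0.34 in KI, beside 0.01 and 0.00 over all tested miRNAs. Of all tested miRNAs, 41.9% were called in KO and 38.0% in KI.

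Of 9 let-7 and miR-98 names, 1 rose in KO (let-7c-5p, 0.53) and 1 fell (let-7a-5p, -0.14). In KI 1 rose (let-7i-5p, 0.14) and 2 fell (let-7a-5p, -0.15, and let-7e-5p, -0.22). These calls were no more frequent than over all tested miRNAs, at 41.9% in KO and 38.0% in KI. The median of the 9 was 0.11 in KO and -0.02 in KI. The called relatives went in both directions, and none of the relatives rose as far as miR-10b-5p and miR-196a-5p in either contrast.

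**Figure D4:**
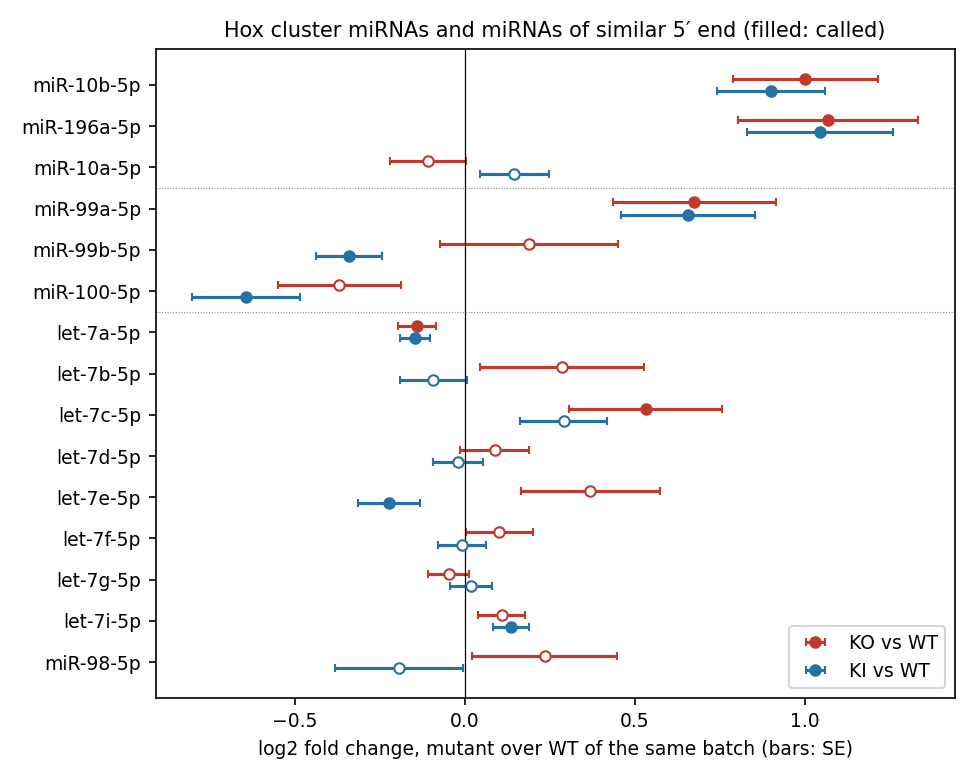
Log2 fold change of each tested Hox cluster miRNA and of its relatives in KO and in KI over WT of the same batch (bars: SE; filled points: called at an adjusted p under 0.1). miR-10b-5p and miR-196a-5p lie near 1 in both contrasts, and miR-10a-5p, miR-99b-5p, miR-100-5p and let-7 lie near or below 0.5. Among the relatives, miR-99a-5p lies between them, at 0.68 in KO and 0.66 in KI, and is called in both. In KI miR-99b-5p (-0.34) and miR-100-5p (-0.64) are called lower.

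The miRNAs whose pattern over the 22 libraries was most like that of each member were found by the root-mean-square difference of log2(CPM + 1), taken relative to the WT mean of the batch, among 327 candidates with at least 10 CPM. For miR-10b-5p they were miR-199b-3p (0.156), miR-199a-3p (0.156) and miR-199a-5p (0.159), where the median candidate was at 0.796. For miR-196a-5p they were the same names, miR-199a-5p (0.349), miR-199b-3p (0.351) and miR-199a-3p (0.351), with a median of 0.880. Among all candidates miR-10b-5p itself was nearest to miR-196a-5p (0.331). For miR-10a-5p they were miR-21a-5p (0.114), miR-190b-5p (0.150) and let-7i-5p (0.166), with a median of 0.369, and miR-10b-5p ranked 304. The measure includes the shift between mutant and WT. That rank therefore in part repeats that miR-10b-5p was called higher and miR-10a-5p was not. miR-199a-3p and miR-199b-3p have 1 mature sequence, and the first, with 2 loci, had exactly 2 times the count of the second, with 1 locus, in 19 of 22 libraries, so they are 1 measurement.

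miR-199a and miR-199b are known from fibroblasts and other mesenchymal cells, and miR-199a stands in the list of vascular, smooth muscle and stromal markers written for this comparison. miR-199a-5p itself measured 286 ± 96.9 CPM in WT and 553 ± 157 CPM in KO (SD, n = 5 each), with a log2 fold change of 1.01 (SE 0.26, adjusted p = 0.0130, edgeR). It measured 413 ± 103 CPM in WT and 757 ± 254 CPM in KI (SD, n = 6 each), with a log2 fold change of 0.85 (SE 0.22, adjusted p = 0.00907, edgeR). The number of miR-10b-5p counts per miR-199a-5p count was 1.65 ± 0.244 in WT and 1.60 ± 0.142 in KO (SD, n = 5 each). In the KI batch it was 1.38 ± 0.192 in WT and 1.43 ± 0.136 in KI (SD, n = 6 each). For miR-10a-5p the same ratio was 0.848 ± 0.401 in WT and 0.356 ± 0.0724 in KO, and 0.453 ± 0.127 in WT and 0.281 ± 0.0686 in KI. For miR-196a-5p it was 0.114 ± 0.0247 in WT and 0.122 ± 0.0387 in KO, and 0.0682 ± 0.0180 in WT and 0.0788 ± 0.0174 in KI. The group means of these ratios lay within 1 SD of each other for miR-10b-5p and miR-196a-5p, and were lower in both mutants for miR-10a-5p. The ratios were chosen after the values were seen and were not tested. miR-199a-5p had been found among the names closest to miR-10b-5p and miR-196a-5p in these same libraries. Their steady ratios to it largely follow from that choice and are not a separate result.

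Of the 8 vascular, smooth muscle and stromal markers, 6 were tested in each contrast, and 4 were called higher and 0 lower in both KO and KI. The 4 were miR-143-3p, miR-145a-5p, miR-199a-3p and miR-199a-5p, and their median with miR-126a-3p and miR-21a-5p was 0.77 in KO and 0.55 in KI. Both miR-199a names are arms of the same hairpins, so these are not 4 separate markers. Over all tested miRNAs, 21.3% were called higher in KO and 18.1% in KI. The summed level of the 8 ran from 3162 to 4199 CPM in WT and from 3530 to 5807 CPM in KO. It ran from 7307 to 9217 CPM in WT and from 8614 to 12964 CPM in KI. None of the 8 was at 0 in all libraries of a group. miR-21a-5p, which was not called in either contrast, made up 34.0% to 76.2% of the sum in the KO batch and 60.8% to 81.5% in the KI batch. Without it the sum of the other 7 ran from 753 to 2017 CPM in WT and from 1872 to 3833 CPM in KO, and from 1353 to 2417 CPM in WT and from 2348 to 5082 CPM in KI. miR-10b-5p and the sum of 8 were lowest in the same library of each group (WT replicate 2 and KO replicate 5 of the KO batch, WT replicate 6 and KI replicate 2 of the KI batch). They were highest in the same library in KO, in KI and in WT of the KI batch, but not in WT of the KO batch. With the sum of 7 the lowest library was the same in every group except KI, and the highest in every group except WT of the KI batch. Both sums include miR-199a, already found closest in pattern to miR-10b-5p, so these shared libraries in part repeat that likeness. How much of the rise of miR-10b-5p and miR-196a-5p comes with these markers was not tested, and in bulk libraries a different number of cells of a type cannot be told apart from a different amount of RNA per cell.

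**Figure D5:**
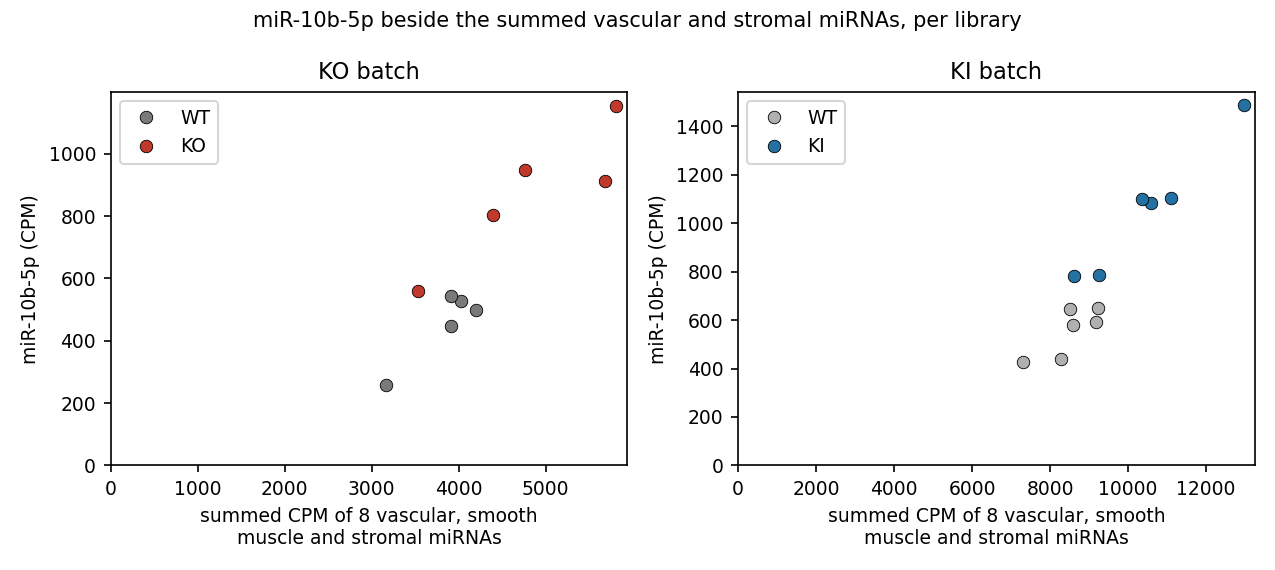
miR-10b-5p in CPM against the summed CPM of 8 vascular, smooth muscle and stromal miRNAs, miR-21a-5p included, in each library (linear axes from 0), for the KO batch and the KI batch. The libraries with the lowest miR-10b-5p of each group also have the lowest sum, and KI replicate 3 is highest in both.

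Markers of blood and immune cells moved as well. Of 9, 7 were tested, and 4 in KO and 6 in KI were called higher and 0 lower, with medians of 0.68 and 0.56. Their sum ran from 4204 to 5400 CPM in WT and from 4868 to 6733 CPM in KO. In the KI batch it ran from 3307 to 4288 CPM in WT and from 4397 to 6596 CPM in KI. The red cell miRNA miR-144-3p was at 0 in WT of the KO batch and in both groups of the KI batch. miR-451a of the same list passed the filter and was not called, with log2 fold changes of -0.25 in KO and 0.11 in KI. Both arms of miR-142a also stand in that list, so its names are not all separate markers. Of the 11 germ cell miRNAs, 0 rose and 7 fell in each contrast, with medians of -0.23 in KO and -0.33 in KI. Both arms of miR-34b and of miR-34c are among them, so these are not 11 separate markers. Neither miR-449a-5p nor miR-34b-3p nor miR-34c-3p was called in either contrast. Over all tested miRNAs, 21.3% were called higher and 20.7% lower in KO, and 18.1% and 19.9% in KI. Of the 3 muscle miRNAs, miR-1a-3p was called higher in KO (1.79, adjusted p = 0.0417, edgeR), and the 2 tested in KI were not called. Their part in the results of the Hox cluster miRNAs was not tested.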

How the data were processed

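The authors deposited whole-number counts of reads per mature miRNA name for 22 libraries. Per the methods and the submitters' processing notes, adapters were trimmed with cutadapt 3.4, quality was checked with FastQC 0.11.9, and reads were aligned to GRCm38 (mm10) with Bowtie2 2.4.2 in local mode with up to 100 alignments per read. Files were handled with SAMtools 1.12, and alignments on miRBase names were counted with strand by featureCounts of Subread 2.0.1. Reads marked as duplicates were kept. Some reads were counted at more than 1 locus, as the counts of miR-199a-3p show. Counts of miR-196a-5p, with 2 loci, were odd in 10 of 22 libraries, so they were not simply doubled. In the 2 libraries with 0 miR-196b-5p counts there were 76 miR-196a-5p counts, of which the limit of 3 counts would be 3.95%. These libraries were picked for their 0 counts. By group, miR-196b-5p averaged 4.03% to 6.71% of the counts of the miR-196 pair, close to that limit. The limit therefore cannot show how many miR-196b-5p counts were miR-196a-5p reads. The level of miR-196a-5p relative to names with 1 locus is uncertain. For the miR-10 pair, miR-10a-5p had between 14.8% and 77.7% of the miR-10b-5p count of the same library. How many miR-10a-5p counts were miR-10b-5p reads was not tested.

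Groups follow the labels, and batches are named by their mutant, because the labels and the methods order them differently. Every library was used, and 0 columns were left out. KO and KI were each tested against WT of their batch with edgeR 4.0.16 (R 4.3.3; quasi-likelihood F-test, TMM, filterByExpr), adjusted by Benjamini-Hochberg over all miRNAs tested and called under 0.1, the study's threshold. WT libraries were compared between batches in a further fit, and the 2 effects in a fit of all 4 groups. The study used DESeq2, an alternative here (1.42.0). Ratios used log2 of counts with 0.5 added, in two-sided exact permutation tests called under 0.05 after adjustment (scipy 1.17.1). Other alternatives were RLE size factors, library size only, no filter, a replicate block, a fit of all 4 groups, a ratio pseudocount of 5 and leaving out each library. Overlap after scaling by library total, and the marker sum without miR-21a-5p, were added after the data had been seen. Scripts were tested on simulated data. The names in the text are the 5 members, their other arms, the miR-99, miR-100 and let-7 relatives, the 3 miRNAs most like each tested member and the marker lists. Members and lists were chosen with earlier results of these data known. Python 3.11.15, numpy 2.4.6, pandas 2.3.3 and matplotlib 3.10.9 were used.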

Additional observations from a re-analysis of the deposited data

Results flagged for a closer look

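miR-10b-5p in WT replicate 2 of the KO batch stood apart from its group. It was at 8.02 on the log2(CPM + 1) scale, while the other 4 WT libraries lay between 8.80 and 9.09, and its gap to the nearest was 0.732 of the group's whole range. Of 24 combinations of a group with 1 of 6 measures (the 3 tested members and 3 ratios of members) that were screened, 1 was flagged, where chance gives about 1.2. The same library had the lowest miR-196a-5p of its group (18.9 CPM) and the lowest sum of vascular, smooth muscle and stromal miRNAs (3162 CPM).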

How the results depend on the processing

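miR-10b-5p and miR-196a-5p were called higher in KO and in KI under all 6 other settings of each contrast and in every fit that left out 1 library. Over the settings, miR-10b-5p ran from 0.95 to 1.12 in KO and from 0.88 to 0.99 in KI, and miR-196a-5p from 1.01 to 1.19 and from 1.02 to 1.13. Leaving out 1 library gave 0.85 to 1.12 and 0.77 to 0.98 for miR-10b-5p, and 0.93 to 1.27 and 0.89 to 1.15 for miR-196a-5p. Library size alone moved the median of all miRNAs by 0.11 in KO, 0.09 in KI and -0.33 between the WT groups, and gave 101 higher and 44 lower calls in KO (71 and 69 with TMM) and 96 and 53 in KI (70 and 77). Between the WT groups, the members called numbered 1 by TMM, 2 by library size alone (miR-10a-5p and miR-196a-5p, -0.65) and 2 without the filter (miR-10b-5p, 0.28, and miR-615-3p). The cause was not tested.

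Replicate numbers were shared across genotypes, but not every same-numbered pair deviated together. The correlation was over 0.1 in 2 of 5 pairs of the KO batch (mean r 0.0475, with 1 of 5 mutants closest to its own number) and in 3 of 6 pairs of the KI batch (mean r 0.194, with 3 of 6), so the numbers were not taken as pairs. With a replicate block, edgeR called 124 miRNAs in KO, 165 in KI and 25 for the difference of effects (0 without it); miR-10b-5p gave 0.997 and 0.88 and miR-196a-5p 1.10 and 1.04, all still called. The sign-flip tests of the ratios over pairs, 1.12 in KO and 0.75 in KI for miR-10b-5p to miR-10a-5p and -0.83 in KI for miR-196b-5p to miR-196a-5p, gave an adjusted p of 0.188 each; 5 pairs cannot give a p below 0.0625, nor 6 pairs below 0.0312. Leaving out 1 library gave 0.95 to 1.25 in KO and 0.67 to 0.82 in KI for the former, all called, and -0.9998 to -0.62 for the latter, with adjusted p of 0.0173 to 0.0952. Depth limits miR-196b-5p and miR-615-3p, at most 14 and 5 counts in a library.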
